A study of Arabidopsis thaliana with 4 samples.

Results

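The stearoyl-ACP desaturase family of Arabidopsis thaliana was examined in hypocotyls of shr-2 mutant and wild type Col-0 seedlings. The family was taken whole, as the 7 genes that the annotation names S-ACP-DES1, S-ACP-DES3, S-ACP-DES5, S-ACP-DES6 and FAB2 (also called SSI2) or describes as plant stearoyl-acyl-carrier desaturases (AT3G02610 and AT3G02620), out of 32538 genes in the deposited table. Membership follows the annotation, but the family was selected on measured values, namely the FPKM of S-ACP-DES6, which is among the largest increases of the mutant in this same comparison. The levels of the members are therefore a description, without a test. The mutant group was shr-2, a loss of function of SHORT-ROOT (SHR), a transcription factor that specifies the endodermis, with 2 libraries. The other group was Col-0, the parental accession, with 2 libraries. Per the labels all seedlings were germinated for 24 hours on diluted MS medium, grown in the dark at 22 °C and taken at 5 days, and poly(A) RNA came from excised hypocotyls, the stems below the cotyledons. The labels do not say how many seedlings made up a library.

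Stearoyl-ACP desaturases are soluble plastid enzymes that put the first double bond into a saturated fatty acid while it is still carried on acyl carrier protein (ACP). The reaction they are named for turns stearate into oleate, and the substrate of each member was not examined here. They use a pair of iron atoms and electrons from ferredoxin. FAB2 supplies most of the oleate of Arabidopsis leaves, and its loss gives small plants with permanently active defence. S-ACP-DES6, also annotated FTM1 for a role in the floral transition of the shoot meristem, belongs to the transcripts known to accumulate under low oxygen.

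The members share the coding stretch around the first iron-binding site, which is shown for all 7 because it is a part that defines the family. Differences between the stretches are counted below in bases, not in amino acids. In each line 57 bases of the plus strand of TAIR10.1 are given, all within exon 2, and capitals mark the codons of the glutamate and the histidine that hold iron.
S-ACP-DES6 (chr1:16578321-16578377): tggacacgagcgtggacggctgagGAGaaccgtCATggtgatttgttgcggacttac
FAB2 (chr2:18121730-18121786): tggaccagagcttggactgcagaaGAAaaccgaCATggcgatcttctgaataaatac
S-ACP-DES5 (chr3:563251-563307): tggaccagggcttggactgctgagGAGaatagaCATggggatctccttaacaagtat
S-ACP-DES1 (chr5:5308601-5308657): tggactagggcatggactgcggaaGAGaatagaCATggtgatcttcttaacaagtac
S-ACP-DES3 (chr5:5305170-5305226): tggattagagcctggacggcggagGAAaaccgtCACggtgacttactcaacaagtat
AT3G02620 (chr3:560941-560997): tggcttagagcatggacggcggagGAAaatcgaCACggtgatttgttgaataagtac
AT3G02610 (chr3:556662-556718): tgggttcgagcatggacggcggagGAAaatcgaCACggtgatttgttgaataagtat

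Each of the 7 coding sequences held 2 such sites, the second in exon 3. In the stretch shown, S-ACP-DES6 differed from FAB2 at 17 bases, S-ACP-DES3 and AT3G02610 at 16 bases each, AT3G02620 at 14, S-ACP-DES5 at 12 and S-ACP-DES1 at 11. Over the aligned coding bases the closest members were AT3G02610 and AT3G02620, with 94.3% identity, and then S-ACP-DES1 and S-ACP-DES5, with 85.4%. S-ACP-DES6 stood apart, with 67.4% identity to FAB2, its closest relative, and 65% to S-ACP-DES1, its most distant one.

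**Figure D1:**
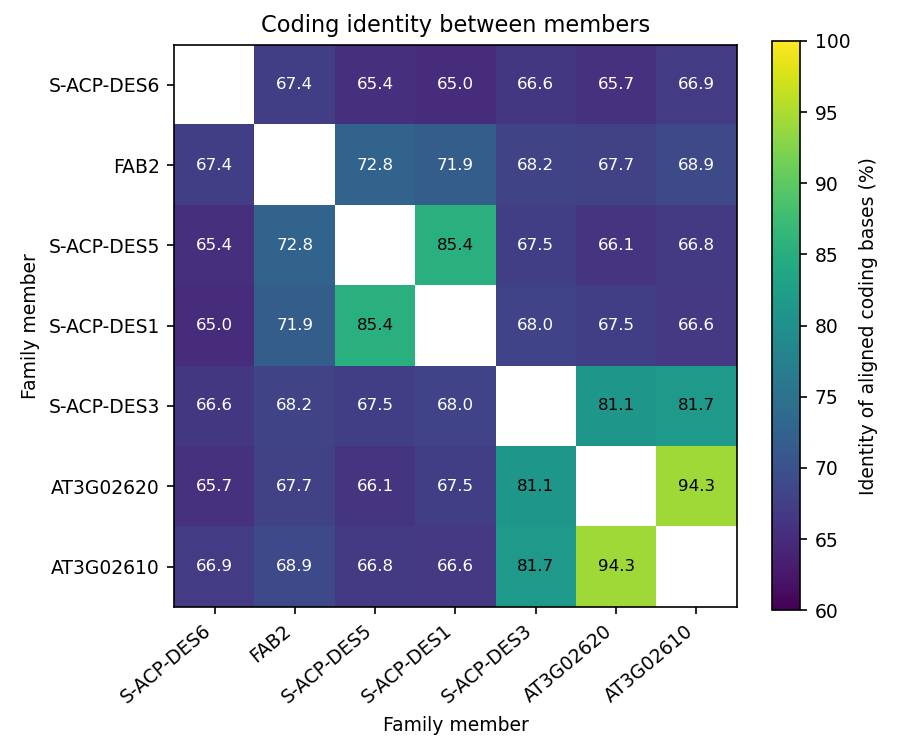
Identity of aligned coding bases between each pair of family members, in percent, by colour and number. AT3G02610 and AT3G02620 share 94.3% and S-ACP-DES1 and S-ACP-DES5 85.4%, while S-ACP-DES6 shares at most 67.4% with any other member.

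These distances bear on how far reads can be assigned to each gene. The longest run of identical bases between transcripts was 90 bases, for AT3G02610 and AT3G02620, so the split of reads between these genes is uncertain. For S-ACP-DES6 the longest run shared with any member was 21 bases, and for FAB2 it was 23 bases. In a search of all annotated transcripts, AT3G02610 and AT3G02620 had 1 copy each, namely one another, that was 90% identical or more along 50% or more of the transcript, and the other 5 members had 0. All 7 genes lie on the plus strand, and 5 of them lie in clusters. On chromosome 3, AT3G02610 (555626 to 557723), AT3G02620 (560182 to 561979) and S-ACP-DES5 (AT3G02630, 562030 to 564870) follow one another with no other gene model between them, and 50 bases separate the last neighbours. On chromosome 5, S-ACP-DES3 (AT5G16230, 5302905 to 5306088) stands 651 bases before S-ACP-DES1 (AT5G16240, 5306740 to 5309961). S-ACP-DES6 (AT1G43800, chromosome 1, 16577521 to 16579722) and FAB2 (AT2G43710, chromosome 2, 18119873 to 18122889) stand alone. S-ACP-DES3 is overlapped over 1452 bases on the opposite strand by the non-coding AT5G16235, which had 8.21 and 7.82 FPKM in shr-2 and 5.51 and 5.96 FPKM in Col-0. The library kit keeps the strand, but the sources used here do not say whether the counting used it.

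Transcript levels are FPKM, fragments divided by transcript length and by the mapped total of a library, as the authors deposited them, so that genes of different length can be set side by side. The 2 libraries of a genotype correlated across genes at Pearson r = 0.981 in shr-2 and 0.984 in Col-0, and libraries of different genotype at 0.900 to 0.911. SHR itself had 2.57 and 3.45 FPKM in shr-2 and 28.4 and 28.9 FPKM in Col-0 (limma, adjusted p = 0.00049), which goes with the titles. For these mutant libraries the genotype field instead reads SCL28-OX #10, and for all libraries the tissue field reads root tip. No library exceeded 0.397 FPKM in any of 11 root tip and root hair markers. Of the 6 endodermis markers, which all fell, the summed level was 1.13 to 2.94 FPKM in shr-2 and 364 to 461 FPKM in Col-0. The series' design text calls the libraries biological duplicates without naming separate cultures. The p-values set each genotype difference against the spread between these libraries, adjusted toward that of genes of like level. The spread between these libraries may be technical. The deposited values give no read totals. As a rough guide, 1 fragment per kb of transcript was taken as 0.0426 to 0.0440 FPKM. This is the median of the low values within a window of 0.02 to 0.06, so the window largely sets it. The estimated fragment numbers below are therefore only rough.

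S-ACP-DES6 had the highest mean level of the family in shr-2 and the lowest in Col-0. It had 97.2 and 60.5 FPKM in the shr-2 libraries, against 0.618 and 0.549 FPKM in the Col-0 libraries. Both mutant libraries lay far above both wild-type libraries. The means were 78.8 ± 25.9 FPKM in shr-2 and 0.583 ± 0.0490 FPKM in Col-0 (SD, n = 2 each), a ratio of 135. On the log2 scale of FPKM + 1 the difference was 5.62 with a standard error of 0.23, and 7 of the 19920 genes averaging 1 FPKM or more had a higher one. The level rested on an estimated 3312 and 2050 fragments in shr-2 and on an estimated 22 and 19 in Col-0. In the ranking of all 32538 genes by mean level it stood above 94.4% in shr-2 and above 36.5% in Col-0. Fewer cells that express a gene and less RNA per cell cannot be told apart in such bulk samples, and the same holds for the opposite case.

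The mutant libraries also differed from each other in S-ACP-DES6. Replicate 1 was 1.61 times replicate 2, whereas the median gene of like level had a ratio of 1.10. Of 2295 genes with a mean of 50 to 150 FPKM in shr-2, 3.09% had a ratio at least as large. The genotype difference was far larger than this spread, and the log2 difference was 5.95 with only replicate 1 and 5.28 with only replicate 2 of the mutant.

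FAB2, the main enzyme of the family in leaves, had 52.5 and 58.3 FPKM in shr-2 and 50.5 and 53.2 FPKM in Col-0. The genotypes overlapped, and the log2 difference was 0.09 with a standard error of 0.10. S-ACP-DES5 had 33.4 and 36.3 FPKM in shr-2 and 33.4 and 35.7 FPKM in Col-0, again with overlap, and a log2 difference of 0.01 with a standard error of 0.10. These genes were the most abundant members in Col-0, above 90.9% and 85.8% of all genes. FAB2 stood above S-ACP-DES5 in every library, by a ratio of 1.57 and 1.61 in shr-2 and 1.51 and 1.49 in Col-0.

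The other 4 members were low in both genotypes. S-ACP-DES1, the closest relative of S-ACP-DES5, had 3.2 and 3.48 FPKM in shr-2 and 3.77 and 4.05 FPKM in Col-0. Both mutant libraries lay below both wild-type libraries, and the log2 difference was -0.18 with a standard error of 0.12. AT3G02620 had 3.49 and 3.42 FPKM in shr-2 and 1.8 and 2.17 FPKM in Col-0, a ratio of means of 1.74 with no overlap and a log2 difference of 0.58 with a standard error of 0.13. S-ACP-DES3 had 1.15 and 0.695 FPKM in shr-2 and 1.52 and 0.860 FPKM in Col-0, so the libraries of a genotype differed more than the genotype means did, and the log2 difference ranged from -0.40 to 0.04 over the settings tried. AT3G02610 had 0.787 and 0.631 FPKM in shr-2 and 0.831 and 0.771 FPKM in Col-0, which rests on an estimated 21 to 28 fragments a library. AT3G02610 and AT3G02620 are the near-identical neighbours, and their levels depend on how shared reads were divided.

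**Figure D2:**
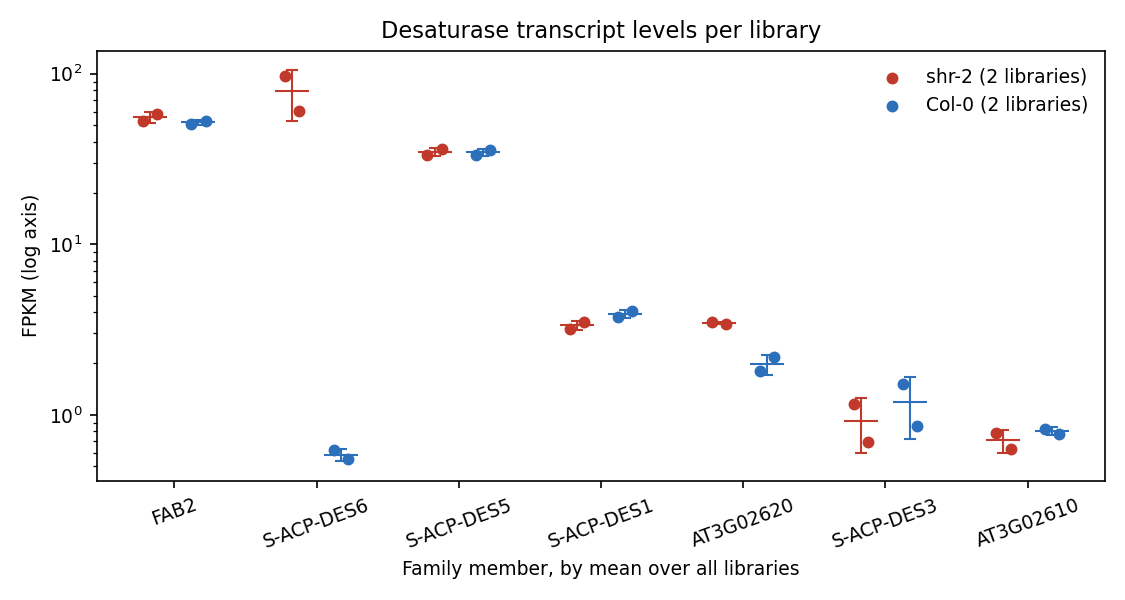
Transcript level of the 7 family members in each library, in FPKM on a log axis, with points for libraries, long dashes for means and bars for SD (n = 2), shr-2 left of Col-0. S-ACP-DES6 has 97.2 and 60.5 FPKM in shr-2 and 0.618 and 0.549 FPKM in Col-0, while FAB2 and S-ACP-DES5 overlap between the genotypes.

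In shr-2 the order of mean levels was S-ACP-DES6, FAB2, S-ACP-DES5, AT3G02620, S-ACP-DES1, S-ACP-DES3 and AT3G02610. In Col-0 it was FAB2, S-ACP-DES5, S-ACP-DES1, AT3G02620, S-ACP-DES3, AT3G02610 and S-ACP-DES6. S-ACP-DES6 exceeded FAB2 in both mutant libraries, by 1.85 times in replicate 1 and 1.04 times in replicate 2. The top place of S-ACP-DES6 in the mutant was therefore narrow in replicate 2, and its lead differed much between the libraries. In the mutant, AT3G02620 and S-ACP-DES1 overlapped, as did S-ACP-DES3 and AT3G02610, and FAB2 and S-ACP-DES6 did not. In Col-0 no neighbours in the order overlapped.

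Summed over the family, the level was 192 and 163 FPKM in shr-2 and 92.4 and 97.3 FPKM in Col-0. The mean sum was 178 ± 20.1 FPKM in shr-2 and 94.8 ± 3.48 FPKM in Col-0 (SD, n = 2 each), a ratio of 1.87. Without S-ACP-DES6 the sum was 94.6 and 103 FPKM in shr-2 and 91.8 and 96.8 FPKM in Col-0, a ratio of 1.05 with overlapping libraries. S-ACP-DES6 made up 50.7% and 37.1% of the family sum in shr-2 and 0.669% and 0.564% in Col-0. The share of FAB2 was 27.4% and 35.7% in shr-2, against 54.65% in each Col-0 library, although its own level overlapped between the genotypes.

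**Figure D3:**
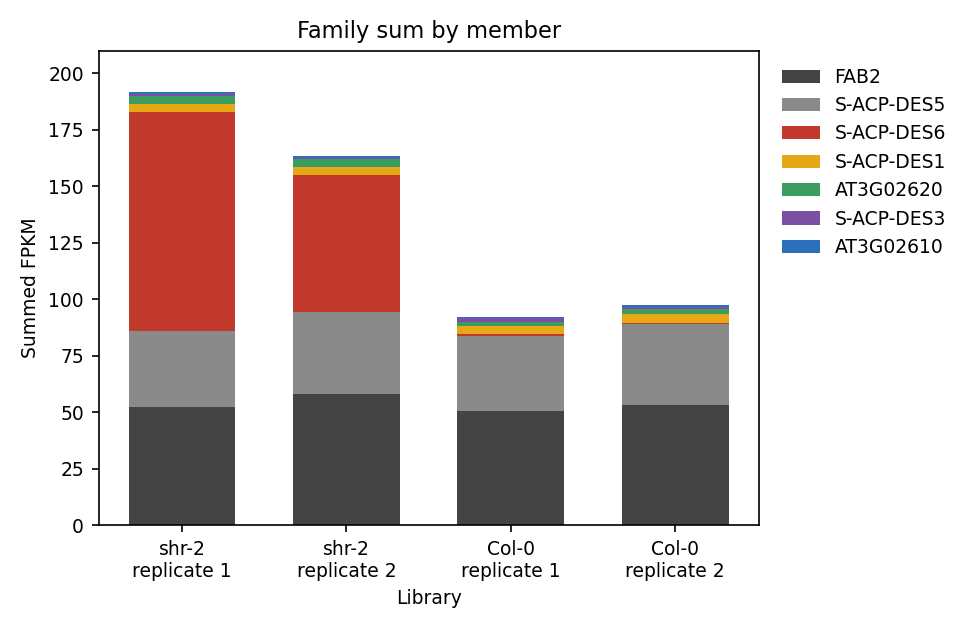
Summed FPKM of the 7 members in each library, stacked by member. The sum is 192 and 163 FPKM in shr-2 and 92.4 and 97.3 FPKM in Col-0, and S-ACP-DES6 holds 50.7% and 37.1% of it in shr-2.

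Of the 7 members, 6 passed the filter, a mean over all libraries of 1 FPKM or more, S-ACP-DES6 only through its mutant libraries, and AT3G02610 did not. In the limma fit over all genes, 2 of these 6 were past the threshold, S-ACP-DES6 and AT3G02620, both higher in shr-2, against 27.6% of all genes tested (13.9% higher and 13.7% lower). The authors' deposited table marks the same 2 of the 7 members, against 24.8% of the genes it tested. Since the family was chosen with this contrast known, nothing is read from these counts. AT3G02620 was not past the threshold with any library left out. Of the 7 members, 2 had both mutant libraries above both wild-type libraries and 1 had both below, where 33.9% and 32.2% of all genes tested did.

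The genes whose pattern over the 4 libraries lay nearest to S-ACP-DES6 were found by the Euclidean distance of log2(FPKM + 1) values centred on each gene. Among 19919 genes they were MIR398B, a microRNA precursor, at a distance of 0.42, ICL, isocitrate lyase of the glyoxylate cycle, at 0.71, and ELIP2, an early light-induced protein, at 0.92. ICL had 788 and 653 FPKM in shr-2 and 24.2 and 19.4 FPKM in Col-0. ELIP2 had 87.5 and 122 FPKM in shr-2 and 1.54 and 1.96 FPKM in Col-0, so its mutant libraries stood in the opposite order to those of S-ACP-DES6. MIR398B, a short model where each fragment adds more FPKM, had 55.5 and 50.9 FPKM in shr-2 and is listed at 0 in both Col-0 libraries. Nearest to FAB2 were the actin gene AT2G37620, AT1G16800 and ORG4, at distances of 0.013 to 0.014. AT2G37620 had 25.7 and 28.8 FPKM in shr-2 and 24.6 and 25.9 FPKM in Col-0, a pattern as flat as that of FAB2.

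Among genes of the pathway that feeds the desaturases, ACP4 rose and LPD1, CAC2 and E1-BETA-2 fell. Fatty acid synthesis in the plastid builds acyl chains on ACP from acetyl-CoA, which plastid pyruvate dehydrogenase provides and acetyl-CoA carboxylase activates. Of 22 tested genes, 1 was called higher in shr-2, 3 were called lower and 18 did not pass, 18.2% called against 27.6% of all genes. The median log2 difference was -0.09, against 0.01 over all genes tested. ACP4, a carrier protein isoform prominent in leaves, rose, with 97.9 and 103 FPKM in shr-2 and 58.9 and 54.5 FPKM in Col-0 (limma, log2 difference 0.81, adjusted p = 0.00437). LPD1, a lipoamide dehydrogenase of plastid pyruvate dehydrogenase, fell, with 16.8 and 18.2 FPKM in shr-2 and 33.4 and 30.9 FPKM in Col-0 (limma, log2 difference -0.84, adjusted p = 0.00455). CAC2, the biotin carboxylase subunit (limma, log2 difference -0.49, adjusted p = 0.0145), and E1-BETA-2, a pyruvate dehydrogenase subunit (-0.39, adjusted p = 0.0381), also fell, but neither call held with any library left out (adjusted p 0.0618 to 0.0912 and 0.0860 to 0.170). The number called lower was then 1.

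Of 7 tested genes of chain release and export from the plastid, 1 was called higher and 1 lower. That is 28.6% called, near the 27.6% of all genes tested, and the median log2 difference was -0.17. LACS9, an acyl-CoA synthetase of the plastid envelope, had 16 and 15.7 FPKM in shr-2 and 10.7 and 12.1 FPKM in Col-0 (limma, adjusted p = 0.0342). FAX1, a fatty acid exporter, had 33.9 and 37.2 FPKM in shr-2 and 44.5 and 49.0 FPKM in Col-0 (limma, adjusted p = 0.0480). Neither call held in any fit without 1 of the libraries (adjusted p 0.0875 to 0.166 and 0.0975 to 0.203). The thioesterases that release oleate and palmitate from ACP, FATA, FATA2 and FATB, did not pass.

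The membrane-bound desaturases are called later here because they act on fatty acids already built into lipids or carried on CoA. Not every gene of this list uses a product of the family, as FAD4 acts on palmitate. Of the 10 tested, 6 rose (60%, against 27.6% of all genes), 0 fell and 4 did not pass, and their median log2 difference was 0.71. FAD6, the plastid enzyme that puts a second double bond into oleate, had 148 and 161 FPKM in shr-2 and 74.3 and 82.2 FPKM in Col-0 (limma, log2 difference 0.98, adjusted p = 0.00362). FAD7 and FAD8 add the third double bond in the plastid. FAD7 had 106 and 108 FPKM in shr-2 and 59.5 and 64.6 FPKM in Col-0 (limma, log2 difference 0.78, adjusted p = 0.00476). FAD8 had 16.3 and 18.6 FPKM in shr-2 and 5.41 and 7.22 FPKM in Col-0 (limma, log2 difference 1.34, adjusted p = 0.00452). The other calls were FAD2, which desaturates oleate in the endoplasmic reticulum, FAD4, which acts on palmitate of plastid phosphatidylglycerol, and ADS4, and they are named here after their values were seen. FAD2 had 951 and 1110 FPKM in shr-2 and 623 and 696 FPKM in Col-0 (limma, log2 difference 0.64, adjusted p = 0.0250), and its call held only without shr-2 replicate 1. FAD6, FAD7 and FAD8 were called whichever library was left out, and 6 of the list were called without shr-2 replicate 1, 5 without the other shr-2 library, 3 without Col-0 replicate 1 and 4 without the other Col-0 library.

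Glycerolipid assembly had 13 tested genes, of which 3 rose, 1 fell and 9 did not pass. That is 30.8% called, near the 27.6% of all genes tested, and their median log2 difference was 0.09. ATS1, the plastid acyltransferase that takes oleate directly from ACP, had 16.4 and 16.6 FPKM in shr-2 and 8.52 and 8.79 FPKM in Col-0 (limma, log2 difference 0.86, adjusted p = 0.00361). MGD1, which makes the main galactolipid of plastid membranes, rose by a log2 difference of 0.60 (limma, adjusted p = 0.0104), and GLY1, which supplies glycerol-3-phosphate, by 0.69 (limma, adjusted p = 0.0168). PAH2, a phosphatidate phosphatase, fell by 0.52 (limma, adjusted p = 0.0226). MGD1 was not called with any library left out (adjusted p 0.0519 to 0.0756). The call of GLY1 held only without shr-2 replicate 2 (adjusted p = 0.0376, otherwise up to 0.106). The call of PAH2 held only without shr-2 replicate 1 (adjusted p = 0.0436, otherwise up to 0.129).

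**Figure D4:**
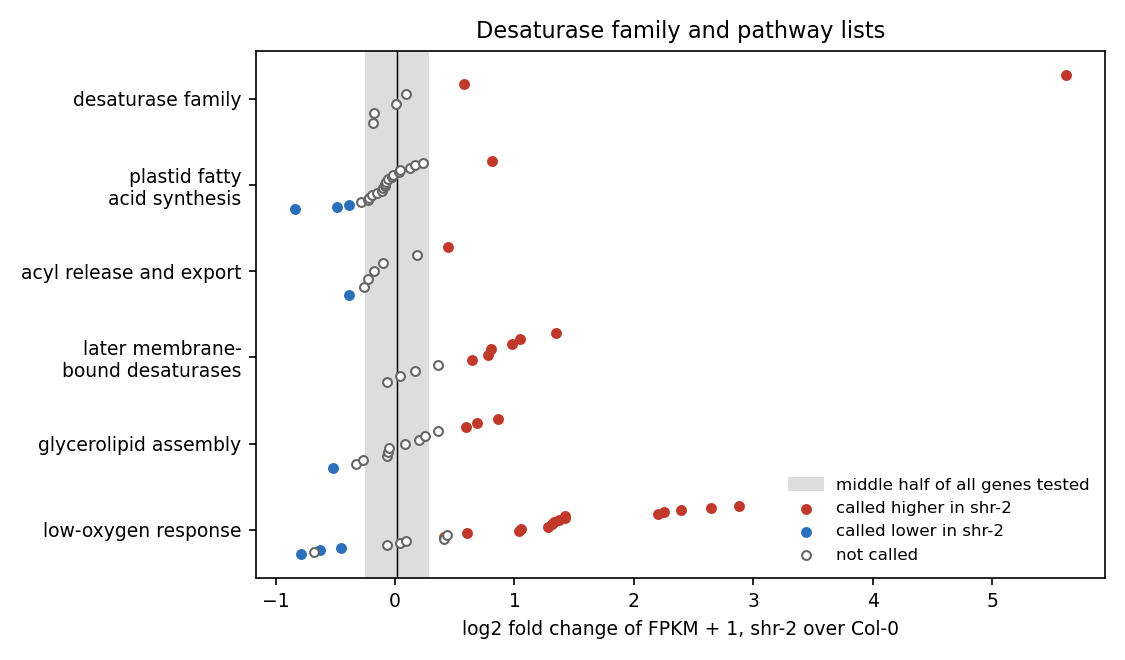
Log2 fold change of FPKM + 1, shr-2 over Col-0, for tested genes of the family (6 of 7 members) and of 5 lists, with filled points for genes past the limma threshold, a grey band for the interquartile range of all tested genes and a line at their median. S-ACP-DES6, on whose increase the family was selected, is at 5.62, and the highest gene of the low-oxygen list is at 2.88. The points of later membrane-bound desaturases lie between -0.06 and 1.34.

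Markers of green tissue moved in the same direction as S-ACP-DES6 and the later desaturases. Of 5 such markers, light-harvesting and Rubisco small subunit genes, 3 rose and 0 fell (60% called, against 27.6% of all genes tested). Not every call held without Col-0 replicate 1. Of the 5, 0 were listed at 0 in all libraries, and their summed level was 7731 to 10201 FPKM in shr-2 and 2181 to 2378 FPKM in Col-0. Most of that sum was RBCS-1A, the gene whose call did not hold. RBCS-1A had 5517 and 7851 FPKM in shr-2 and 1223 and 1461 FPKM in Col-0. LHCB1.3 had 335 and 340 FPKM in shr-2 and 297 and 271 FPKM in Col-0 and did not pass. Of 10 seed storage and oil body markers, 9 stayed under a mean of 1 FPKM, and the oleosin OL3 rose, with 79.1 and 79.8 FPKM in shr-2 and 43.6 and 52.4 FPKM in Col-0 (limma, adjusted p = 0.0118, and 0.0627 without Col-0 replicate 1). Of 5 epidermis markers 0 passed, with a sum of 802 to 1081 FPKM in shr-2 and 929 to 1147 FPKM in Col-0. Of 5 vascular markers 2 rose (40% called), though neither call held with any library left out. The sum of the 5 was 120 to 136 FPKM in shr-2 and 116 to 125 FPKM in Col-0. The part of green tissue, of seed material or of other cells in these differences was not tested.

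S-ACP-DES6 is also a known low-oxygen transcript, and 24 other genes of that response were tested. Of these 15 rose, 3 fell and 6 did not pass (75% called, against 27.6% of all genes tested), their median log2 difference was 1.05, against 0.01 over all genes, and 12 of the 15 were called whichever library was left out. The largest log2 difference among them was 2.88, for the haemoglobin AHB1 (limma, adjusted p = 0.000553), followed by ADH1, alcohol dehydrogenase, at 2.65 (adjusted p = 0.000499), and SUS1, sucrose synthase, stood at 2.25 (adjusted p = 0.000398). The log2 difference of S-ACP-DES6 exceeded all 24, but the family was selected on that increase, so nothing is read from this. HRE1, AT1G19530 and UKL3 were the 3 that fell, and their calls were lost in at least 3 of the 4 fits with a library left out. Within shr-2, 15 of the 24 had replicate 1 above replicate 2, the order of S-ACP-DES6, and the rest did not. The share of all genes in that order was not counted, so this number has no background and nothing is read from it. AHB1 had 72.9 FPKM in replicate 1 and 57.0 FPKM in replicate 2, whereas SUS1 had 20.3 and 21.5 FPKM. The part of low oxygen in the level of S-ACP-DES6 was not tested.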

How the data were processed

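The submitters' processing notes name TAIR10 and the tools CASAVA 1.8.2, TopHat2 2.0.13 plus Cuffdiff 2.2.0. Araport11 gave the gene models, per the file headers. The authors deposited FPKM for 4 libraries, with libraries scaled to their own totals. The authors' deposited comparison table holds mean FPKM, log2 fold changes, an unsigned ratio (fold), p-values, q-values and Cuffdiff's statistic (a score), quoted only as theirs. All 32538 genes matched TAIR10.1 by identifier, and the loci of all 7 members were equal to it. Sequences come from that RefSeq genome. Coding identity was computed with Biopython 1.88 and similar transcripts were found with blastn 2.17.0.

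Values became log2(FPKM + 1), which understates the change of low genes. The 19920 genes averaging 1 FPKM or more entered one limma fit (limma 3.58.1, R 4.3.3, with a mean-variance trend, 2-sided, Benjamini-Hochberg adjusted p under 0.05 over all genes), with 2 residual degrees of freedom. The fit added 3.02 prior degrees of freedom, drawn from the spread over all genes. Members and lists were chosen with earlier results of these data known. Named genes are all members, SHR, per list up to 3 called genes of smallest adjusted p in each direction, and the 3 nearest profiles.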

Additional observations from a re-analysis of the deposited data

How the results depend on the processing

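The count of genes called was 5503, lay between 4415 and 5646 over 7 other pseudocounts, filters, scalings and the fit without a trend, and ranged from 2058 to 3843 with a library left out (3434 without shr-2 replicate 2, 2058 and 2266 without Col-0 replicates 1 and 2). The replicate numbers are shared by both genotypes, but nothing says that a number marks a shared day or batch, and the deviations of same-numbered libraries correlated at 0.305. With a replicate block 8729 genes were called, and 6 plastid fatty acid synthesis genes were called lower instead of 3. The number of those called lower was 1 with any library left out, and the number called higher was 1 throughout except with no filter on low values, where it was 2. The family sum ratio, 0.90 on the log2 scale, ranged from 0.78 to 1.02 with a library left out, and the share of S-ACP-DES6 in shr-2, 43.9%, from 37.1% to 50.7%. The log2 difference of S-ACP-DES6 ranged from 5.28 to 7.02 over all settings, and that of FAB2 from 0.02 to 0.17. Counts of other lists stayed within 1.5 times in 117 cases and moved further in 27. The 117 include counts that were 0 in every setting, such as membrane-bound desaturases called lower, so they overstate how stable the counts were. Levels under 1 FPKM rest on few fragments.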

Other observations

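Genes tied to the defence state of fab2 (ssi2) mutants were also read, since loss of FAB2 is known to switch that state on, while FAB2 itself overlapped between the genotypes here. Of 9 such genes 4 were tested, 3 rose and 0 fell, where 27.6% of all genes tested were called and 13.9% were higher, and 1 of the 3 calls held whichever library was left out. ATNOS1 (also NOA1), a plastid GTPase, had 20.6 and 20.6 FPKM in shr-2 and 9.27 and 9.24 FPKM in Col-0 (limma, log2 difference 1.08, adjusted p = 0.00197). PAD4, a lipase-like regulator of salicylic acid signalling, had 6.09 and 7.54 FPKM in shr-2 and 2.04 and 2.73 FPKM in Col-0 (limma, adjusted p = 0.00717). EDS16, which makes the precursor of salicylic acid, had 6.66 and 6.82 FPKM in shr-2 and 2.64 and 3.61 FPKM in Col-0 (limma, adjusted p = 0.0120). The calls of PAD4 and EDS16 were lost without Col-0 replicate 1 (adjusted p 0.0549 and 0.0607). EDS1, the other tested gene, had 20.5 and 18.7 FPKM in shr-2 and 18.4 and 18.2 FPKM in Col-0 and did not pass. PR1, a marker of salicylic acid signalling, reached at most 0.0464 FPKM in any library, and BGL2 at most 0.101 FPKM. PR5 had 0.367 and 0.410 FPKM in shr-2 and 0.473 and 0.570 FPKM in Col-0. The list also holds PDF1.2A and PDF1.2B, jasmonate-response genes whose induction is known to be impaired in ssi2 plants, so they are no markers of that state, and both were listed at 0 in all 4 libraries.

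Of 10 known regulators of fatty acid and seed oil genes, 2 were tested, 8 had a mean under 1 FPKM, and 2 of those 8 were listed at 0 in all libraries. WRI4, an AP2 factor of wax and fatty acid genes, fell, with 16.6 and 16.1 FPKM in shr-2 and 36.6 and 34.6 FPKM in Col-0 (limma, log2 difference -1.08, adjusted p = 0.0020). WRI1, the main activator of fatty acid synthesis in seeds, had 3.51 and 3.63 FPKM in shr-2 and 3.94 and 3.39 FPKM in Col-0 and did not pass. MYB115, a seed activator of desaturase genes, had 0 and 0.0706 FPKM in shr-2 and 0.548 and 0.724 FPKM in Col-0, and MYB118 and DPBF2 were the 2 listed at 0. ADAP had 0.851 and 0.773 FPKM in shr-2 and 1.05 and 1.10 FPKM in Col-0, and FUS3 had 1.07 and 1.02 FPKM in shr-2 and 0.572 and 0.897 FPKM in Col-0.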
